A study of Saccharomyces cerevisiae with 10 samples.

Results

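The genes of the yeast proteasome and of *RPN4*, the transcription activator of these genes, were followed through 10 RNA-Seq libraries of *Saccharomyces cerevisiae*. The set holds 33 genes of 10431 features counted. They were chosen by what they encode and not by any value, although earlier results of these data were known. They are 14 genes of the 20S core (*PRE1* to *PRE10*, *PUP1* to *PUP3* and *SCL1*), 18 genes of the 19S regulatory particle (*RPT1* to *RPT6*, *RPN1* to *RPN3* and *RPN5* to *RPN13*) and *RPN4* itself. All 33 were found, 32 of them as a row of their own and *RPT1* in a row shared with the feature YKL145W-A, and all 33 passed the filter on low counts.

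Libraries were made with QuantSeq, which reads each mRNA near its 3′ end, from 2 replicate cultures of each of 5 strains grown in YPD at 30 °C to an OD600 of about 0.8. A double mutant (*rpb1-84 rrp6∆*), an *rrp6∆* strain and their WT are MATα, share *his3-∆200*, *trp1-∆63*, *ura3-52* and a mutant *leu2* allele, and carry a chromosomal *rpb1-∆187::HIS3* deletion. *RPB1*, the largest subunit of RNA pol II, comes from a 2µm *LEU2* plasmid, as the *rpb1-84* allele on pYEB220-84 in the double mutant and as *RPB1* on pYEB220 in *rrp6∆* and WT. Both *rrp6∆* strains carry *rrp6∆::KanMX4*, which removes Rrp6, a nuclease of the nuclear exosome. The *rpb1-84* strain has the same background and plasmid as the double mutant with *RRP6* in place, and carries in addition a TAP tag on *RPB4* (*RPB4::TAP::TRP1*). The *rpb4∆* strain is MATa *his3-∆1 leu2-∆0 met15-∆0 ura3-∆0* *rpb4∆::kanMX4*. The WT libraries at hand belong to the *rrp6∆* experiment, and no WT of the experiments with *rpb1-84* or *rpb4∆* was used here.

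The proteasome degrades proteins that carry ubiquitin. Its core is a barrel of α and β rings with the cutting sites inside, and the regulatory particle on its ends holds a base with a ring of ATPases that unfold the substrate and a lid that removes the ubiquitin. In yeast Rpn4 binds a short promoter element, the proteasome-associated control element (PACE), and is itself a short-lived substrate of the proteasome, so that the genes of the subunits can be adjusted to the capacity of the complex. The nuclear exosome trims and degrades nuclear RNA, including many ncRNAs.

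Libraries held between 1415496 and 7268211 counts. ORFs took 79.7% and 79.9% of the counts in the double mutant and 71.6% and 72.8% in *rrp6∆*, against 94.4% to 96.4% in the other 6 libraries. *RRP6* had 290 and 176 counts in the double mutant and 572 and 548 in *rrp6∆*, against 231 and 171 in WT. Whether these 3′ tags fall outside the part replaced by KanMX4 is not given, so they do not check the deletion. Across 4400 ORFs with a mean above 10 CPM, log2 levels of double mutant and *rrp6∆* libraries correlated with r between 0.965 and 0.971, and those of *rpb1-84* libraries with any other strain between 0.787 and 0.852. These are correlations across genes, which are not independent replicates. The *rpb1-84* libraries therefore stand apart, and the results that rest on them are given separately. In the libraries labelled *rpb4∆* *RPB4* had 7 and 4 counts. Against the MATa label the a-specific genes *STE2*, *MFA1* and *MFA2* had 0 to 3 counts each while *STE3*, which is specific to α cells, had 142 and 106. *MF(ALPHA)1*, also specific to α cells, had 1 and 1 counts there. It had only 7 and 4 in the MATα WT, so its row says little about mating type. Against the *met15-∆0* label *MET15* had 269 and 210 counts. *SAG1*, an α-specific gene, had 175 and 118 counts there, against 2461 and 2243 in WT, and *LYS2* had 3 and 1, against 1086 and 873 (*MET15*, *SAG1* and *LYS2* were looked up after values were seen).

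PACE, searched on both strands as GGTGGCAAA in the 250 bases before and the first 50 bases from each start codon (R64, RefSeq), was found in 27 of the 33 genes (81.8%), against 72 of all 6001 windows of that length (1.2%) and 45 of the 5968 windows of other genes (0.754%). The shorter core GGTGGCA, which lies inside it, was found in the same number of the 33 genes and in 2.88% of all windows. Each of the 27 genes held 1 match to PACE, and its first base lay between 183 (*PUP3*) and 84 (*RPT6*) bases before the start codon. The 6 genes with no match were *PRE5*, *PUP1*, *RPN8*, *RPN10*, *RPN13* and *RPN4* itself. A match is a run of letters and not a measured binding site. The sequences of the genes on which the results below turn are printed with 16 bases on each side, 5′ to 3′ on the strand of the gene, with the match in capitals (TTTGCCACC where it lies on the other strand).
*PRE6*, chrXV:255212-255252, plus strand: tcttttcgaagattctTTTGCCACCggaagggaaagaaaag
*PUP2*, chrVII:999220-999260, minus strand: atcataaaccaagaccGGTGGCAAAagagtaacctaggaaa
*PUP3*, chrV:349505-349545, minus strand: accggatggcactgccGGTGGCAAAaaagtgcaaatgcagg
*PRE2*, chrXVI:732178-732218, plus strand: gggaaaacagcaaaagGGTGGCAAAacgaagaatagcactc
*PRE3*, chrX:435029-435069, plus strand: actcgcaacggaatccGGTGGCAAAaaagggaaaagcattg
*RPT1*, chrXI:174042-174082, plus strand: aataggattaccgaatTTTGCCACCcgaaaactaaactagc
*RPT2*, chrIV:437900-437940, plus strand: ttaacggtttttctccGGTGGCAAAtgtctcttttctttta
*RPN2*, chrIX:220795-220835, minus strand: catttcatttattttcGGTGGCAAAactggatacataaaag
*RPN11*, chrVI:153253-153293, plus strand: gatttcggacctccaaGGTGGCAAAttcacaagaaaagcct
*RPN12*, chrVI:252392-252432, plus strand: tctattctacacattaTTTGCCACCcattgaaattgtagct
The letters inside the match were the same in all 27 genes by construction, and the flanks differed from gene to gene.

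**Figure D1:**
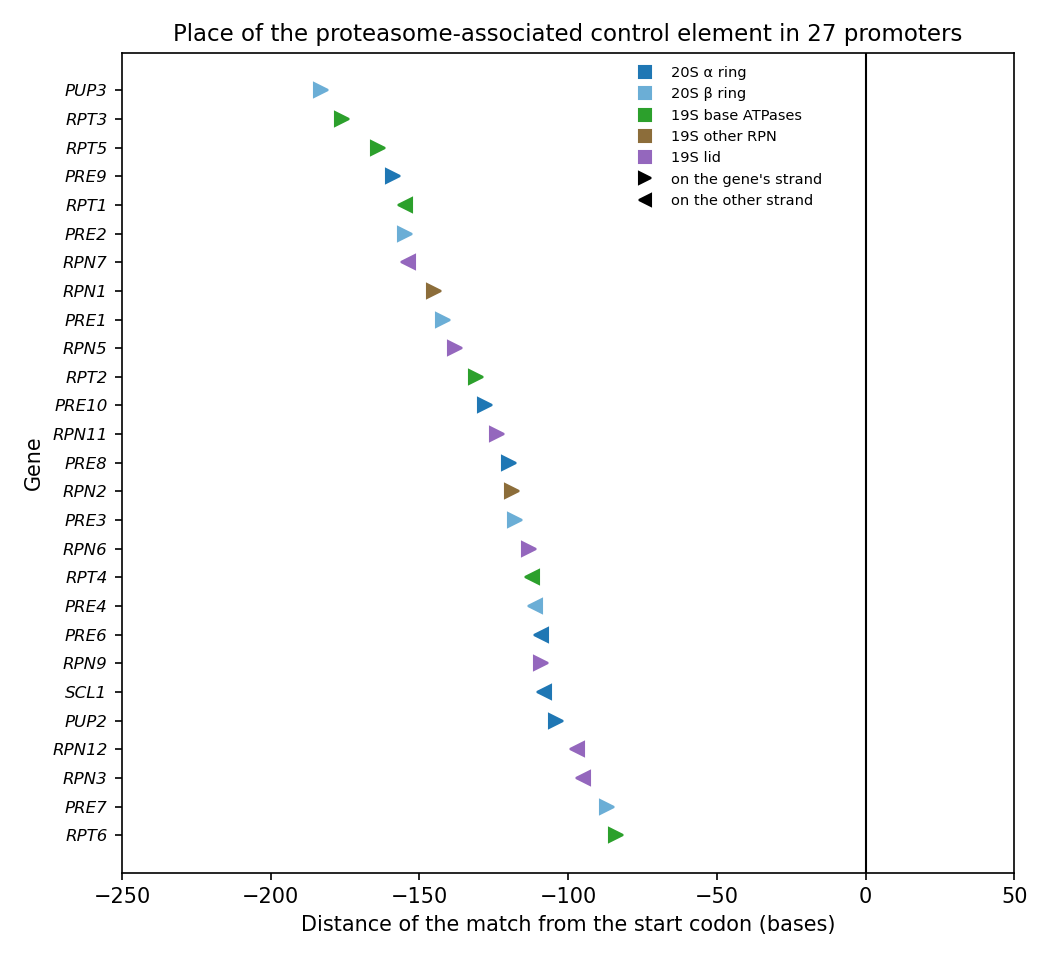
First base of the match to PACE relative to the start codon (x axis, bases) in the 27 genes that hold one (y axis), coloured by the part of the complex and pointing along the strand of the match. All matches lie between 183 and 84 bases before the start codon.

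Levels are given as CPM, counts per 1000000 scaled with TMM factors from the ORF rows, and differences as edgeR log2 fold changes ± SE, relative to the ORFs. The edgeR test gives no SE. It was derived as the absolute log2 fold change divided by the square root of the F statistic. A gene was called higher or lower at an adjusted p below 0.1, adjusted over all features tested, and the threshold of the study asks in addition for more than a 2-fold difference. In cultures measured in bulk, a change in every cell and a change in some of the cells cannot be told apart, and the amount of mRNA per cell was not measured. With 2 replicate cultures per strain the adjusted p-values rest on the spread shared by all libraries of a fit. An exact two-sided permutation test of 2 libraries against 2 cannot go below p = 0.333.

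More proteasome genes were higher than lower in *rrp6∆*, relative to the ORFs. Of the 33 genes 17 were higher and 3 lower in *rrp6∆* than in WT, while of the ORFs 26.8% were higher and 26.7% lower (over all features 53.7% and 15.3%). None of the 33 passed the 2-fold threshold, which 8.76% of ORFs passed. The median log2 fold change was 0.27 over the 33 genes and 0.00058 over the ORFs. For 19 genes the 2 *rrp6∆* libraries were each above the 2 WT libraries, and for 5 each below, against 35.7% and 35.2% of ORFs.

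In the double mutant the proteasome genes that changed against WT were all higher, relative to the ORFs. Of the 33 genes 23 were higher and 0 lower than in WT, against 28.5% and 28.4% of ORFs (48.9% and 17.1% of all features). *PUP2*, *PRE6* and *RPN12* were also past 2-fold, as were 9.52% of ORFs, and the median was 0.36, against −9.3e-05 over the ORFs. Both double mutant libraries lay above both WT libraries for 28 of the 33 genes and below them for 0, against 39.2% and 36.6% of ORFs. By edgeR 0 genes were lower at an unadjusted p below 0.05 as well, and DESeq2 with size factors from ORFs also called 0 genes lower and 21 higher.

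Against *rrp6∆*, the strain that differs from it in the *RPB1* allele on the plasmid, the double mutant had 23 genes higher and 4 lower, against 24.5% and 23.8% of ORFs (16.6% and 35.0% of all features). The 4 lower genes were *PUP3*, *RPT2*, *RPN3* and *RPN8*. None passed 2-fold, as 4.07% of ORFs did, and the median was 0.24, against −0.0065 over the ORFs. The libraries did not overlap for 24 genes that were higher and 5 that were lower, against 35.2% and 33.9% of ORFs. DESeq2 with size factors from ORFs called fewer genes here, 16 higher and 3 lower. The comparisons of *rrp6∆* and of the double mutant with WT share the WT libraries, and those of the double mutant share its own, so they are not independent of each other.

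These directions are relative to the ORFs. Scaling factors from all features, of which the ncRNAs took a larger share without Rrp6, lowered all fold changes of *rrp6∆* over WT together, with an ORF median of −0.49 (TMM) or −0.48 (DESeq2 size factors), and those of the double mutant over WT to an ORF median of −0.34 or −0.36. With TMM factors from all features the count became 3 higher and 20 lower for *rrp6∆*, and 13 higher and 9 lower for the double mutant. How many ORFs were called under this scaling was not counted, here or beside the parts of the complex below. Counts under it follow the shift of all ORFs and are not read as a result about these genes. A change of scaling shifts all genes of a comparison together. It therefore cannot move the place of the 33 genes among the ORFs, and the scalings do not test that place. The median of the 33 genes stood 0.27 above the ORF median in *rrp6∆* and 0.36 above it in the double mutant, with 23 and 29 of the 33 genes above it. For the double mutant over *rrp6∆* it stood 0.24 above, with 26 of 33 genes. The 32 subunit genes together took 0.948% ± 0.0278 of the ORF counts in the double mutant and 0.946% ± 0.0277 in *rrp6∆*, against 0.690% ± 0.00167 in WT (SD, n = 2 each), a share that does not depend on the ncRNA counts. By this share the double mutant and *rrp6∆* overlapped, each at 1.37 times WT. In summed CPM on the ORF scale they stood at 1.31 and 1.18 times WT, so the measures differ on the double mutant against *rrp6∆*.

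**Figure D2:**
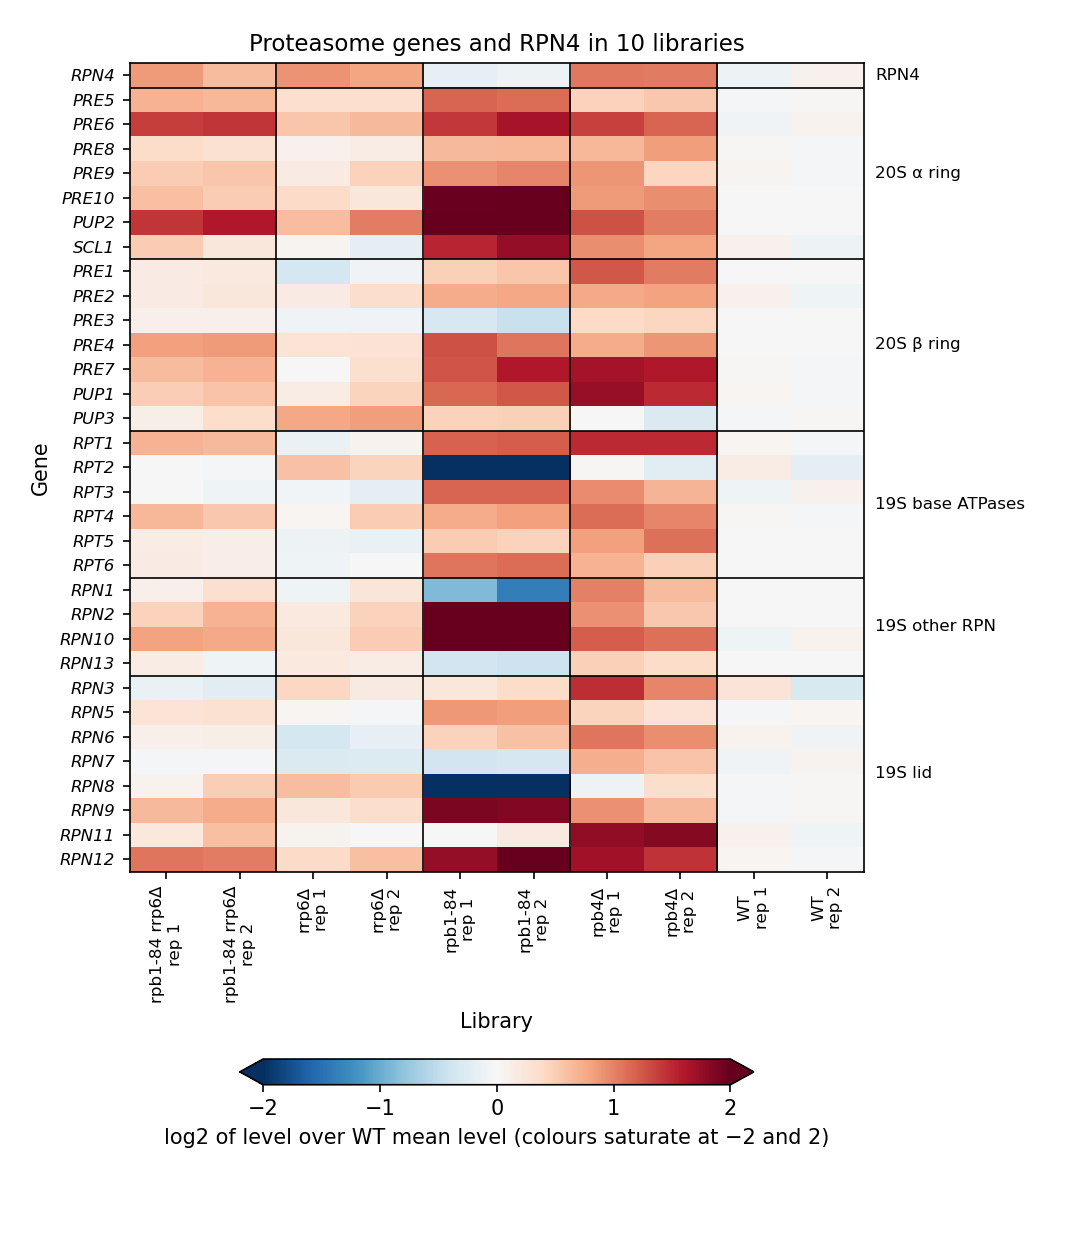
log2 of the level in each library (columns) over the mean WT level for the 33 genes (rows, grouped by part), on a colour scale that saturates at −2 and 2. On this ORF scale 28 of the 33 genes have both double mutant libraries above both WT libraries. With TMM factors from all features the columns of the double mutant and of *rrp6∆* would shift down. The summed level of the 32 subunit genes over WT would go from 1.31 to 1.0 and from 1.18 to 0.818. *RPT2* and *RPN8* are dark blue and *RPN2*, *RPN10*, *PUP2* and *PRE10* dark red in the *rpb1-84* libraries.

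*RPN4* (YDL020C, chromosome IV, 415113 to 416708, minus strand) was higher in both strains that lack Rrp6. It had 142 and 123 CPM in the double mutant and 147 and 137 CPM in *rrp6∆*, against 73.9 and 83.8 CPM in WT. The libraries of the strains without Rrp6 overlapped each other and lay above both WT libraries. The difference from WT was 0.85 ± 0.105 in *rrp6∆* (adjusted p = 1.71e-08, 1.8-fold) and 0.74 ± 0.106 in the double mutant (adjusted p = 4.16e-07, 1.67-fold). Between the double mutant and *rrp6∆* it was −0.11 ± 0.0941 (adjusted p = 0.348). *RPN4* stayed higher than in WT under every scaling, by 0.36 to 0.85 in *rrp6∆* and by 0.38 to 0.74 in the double mutant, and its fold change over WT exceeded that of 90.6% of ORFs in *rrp6∆* and of 88.3% in the double mutant. With single libraries left out it ranged between 0.76 and 0.93 in *rrp6∆* and between 0.63 and 0.83 in the double mutant.

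**Figure D3:**
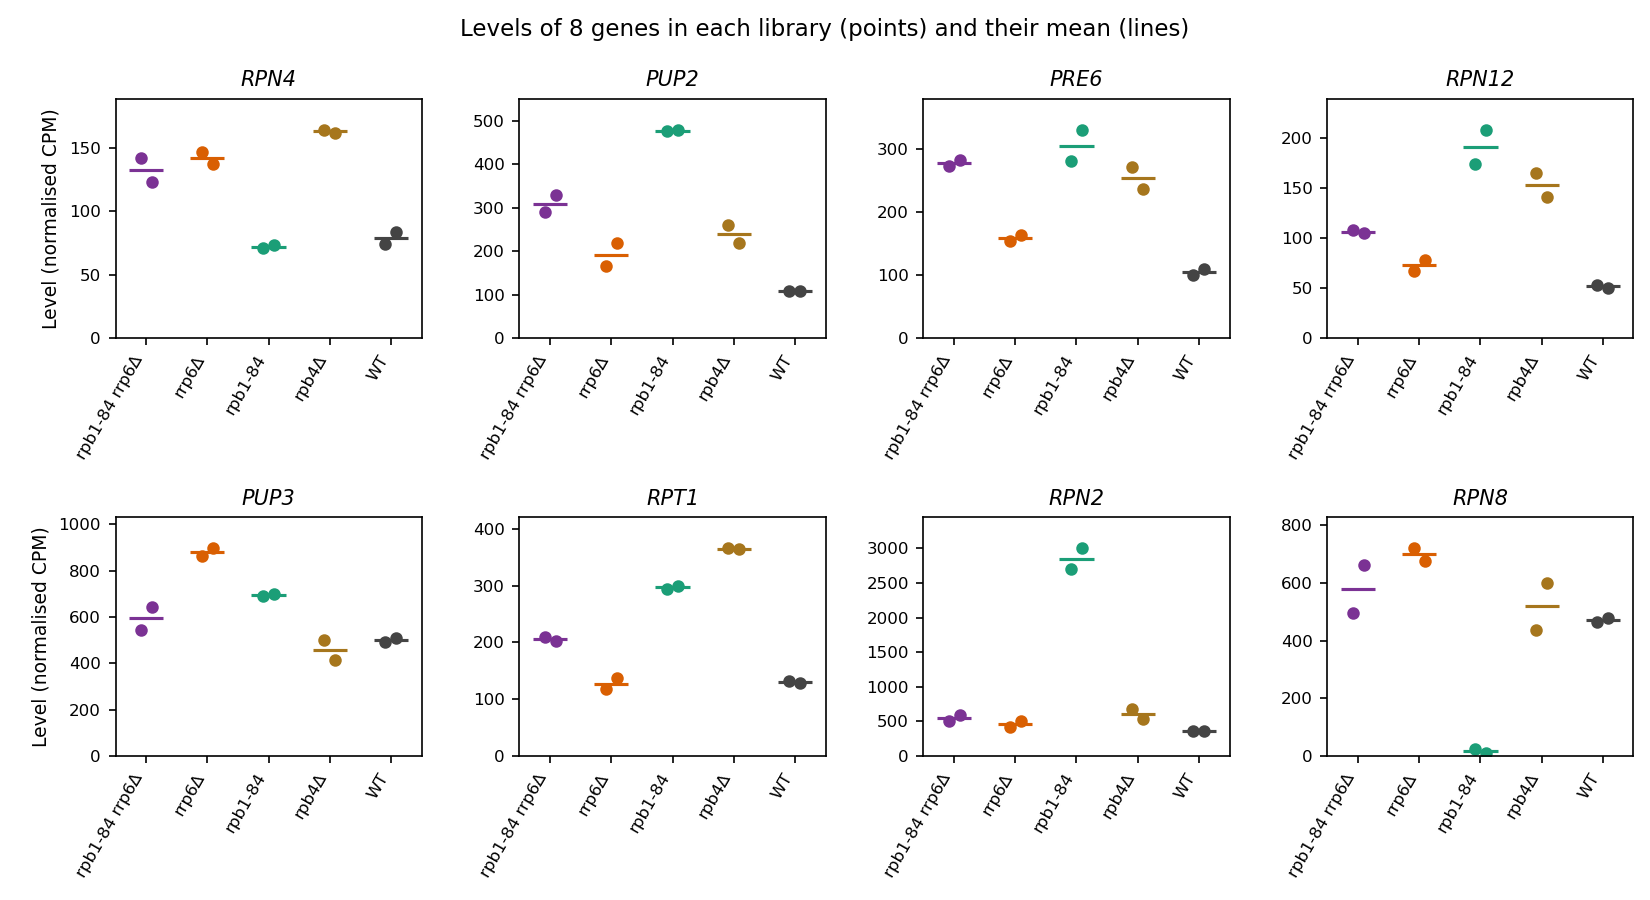
Levels of 8 genes in CPM scaled to ORFs (y axis from 0) in each library (points) of the 5 strains (x axis), with the mean of 2 libraries as a line. *RPN4* is at 123 to 147 CPM in both strains without Rrp6 and at 73.9 and 83.8 CPM in WT, *PUP2*, *PRE6* and *RPN12* have their highest mean in *rpb1-84*, and *RPN8* is at 24.8 and 10.4 CPM in the *rpb1-84* libraries.

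The α subunits form the outer rings of the core and gate the way in. Relative to the ORFs all 7 of their genes rose in the double mutant, against WT and against *rrp6∆* as well, and 5 of the 7 rose in *rrp6∆* against WT. The shares of ORFs called higher in these comparisons were 28.5%, 24.5% and 26.8%. With TMM factors from all features the double mutant over WT had 4 of the 7 higher and 0 lower, and *rrp6∆* over WT had 1 higher and 3 lower. On either scale 7 and 6 of the 7 lay above the ORF median in these comparisons. *PUP2* (YGR253C, chromosome VII, 998358 to 999140), the gene of α5, had 290 and 329 CPM in the double mutant and 165 and 219 CPM in *rrp6∆*, against 108 and 109 CPM in WT. The 3 strains did not overlap. The difference from WT was 1.5 ± 0.112 in the double mutant (adjusted p = 3.12e-13, 2.82-fold) and 0.82 ± 0.114 in *rrp6∆* (adjusted p = 1.65e-07), and the double mutant exceeded *rrp6∆* by 0.68 ± 0.102 (adjusted p = 2.82e-06). *PRE6* (YOL038W, chromosome XV, 255337 to 256101), the gene of α4, had 273 and 283 CPM in the double mutant and 154 and 164 CPM in *rrp6∆*, against 99.8 and 110 CPM in WT, again without overlap. It differed from WT by 1.4 ± 0.0953 in the double mutant (adjusted p = 2.98e-14) and by 0.60 ± 0.0974 in *rrp6∆* (adjusted p = 2.4e-06), and the double mutant exceeded *rrp6∆* by 0.80 ± 0.087 (adjusted p = 1.04e-08), more than for 97.2% of ORFs.

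The other α genes moved less. Over WT they rose in the double mutant by 0.66 (*PRE5*), 0.54 (*PRE10*), 0.51 (*PRE9*), 0.36 (*SCL1*) and 0.33 (*PRE8*). In *rrp6∆* over WT *PRE5*, *PRE9* and *PRE10* rose by 0.31 to 0.33, while *PRE8* was at 0.12 (adjusted p = 0.284) and *SCL1* at −0.07 (adjusted p = 0.579). *SCL1*, the gene of α1, had 212 and 175 CPM in the double mutant and 155 and 131 CPM in *rrp6∆*, against 159 and 139 CPM in WT, so that only the double mutant stood apart. Some of the smaller calls were lost with a single library left out. *SCL1* over WT was not called without double mutant replicate 1 (0.21, adjusted p = 0.141). *PRE9* in *rrp6∆* over WT was not called without *rrp6∆* replicate 2 (0.15, adjusted p = 0.142). Of the calls against *rrp6∆*, *PRE8* was lost without double mutant replicate 1 (0.18) or *rrp6∆* replicate 1 (0.17), *PRE10* without double mutant replicate 1 (0.18) or *rrp6∆* replicate 2 (0.16), and *PRE9* without either double mutant replicate (0.22 and 0.18) or *rrp6∆* replicate 1 (0.056).

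The β rings hold the 3 cutting sites, in the subunits β1 (*PRE3*), β2 (*PUP1*) and β5 (*PRE2*), and the genes of these 3 did not move together. *PRE3* (YJL001W, chromosome X, 435163 to 435926) had 331 CPM in each double mutant library and 295 and 294 CPM in *rrp6∆*, against 306 and 312 CPM in WT. It passed the test in none of these comparisons (0.087, −0.072 and 0.16, adjusted p = 0.381, 0.471 and 0.117 for the double mutant over WT, *rrp6∆* over WT and the double mutant over *rrp6∆*). *PUP1* (YOR157C, chromosome XV, 630966 to 631751) had 224 and 236 CPM in the double mutant and 177 and 217 CPM in *rrp6∆*, against 164 and 154 CPM in WT. It was higher than in WT in the double mutant by 0.52 ± 0.0992 (adjusted p = 3.74e-05). Its calls in *rrp6∆* over WT (0.31, adjusted p = 0.00776) and in the double mutant over *rrp6∆* (0.21, adjusted p = 0.0679) were lost with a single library left out, the first at 0.15 without *rrp6∆* replicate 2 and the second at 0.17 without double mutant replicate 2 or 0.067 without *rrp6∆* replicate 1. *PRE2* (YPR103W, chromosome XVI, 732349 to 733212) had 337 and 350 CPM in the double mutant and 336 and 381 CPM in *rrp6∆*, against 317 and 282 CPM in WT. Its rise over WT was 0.18 in the double mutant (adjusted p = 0.085) and 0.26 in *rrp6∆* (adjusted p = 0.0145). The first call was lost without WT replicate 2 (0.095) or either double mutant replicate (0.21 and 0.15), and the second without WT replicate 2 (0.17) or *rrp6∆* replicate 2 (0.15).

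*PUP3* (YER094C, chromosome V, 348729 to 349346), the gene of β3, was the 1 core gene called lower in the double mutant than in *rrp6∆*. It had 545 and 644 CPM in the double mutant and 862 and 896 CPM in *rrp6∆*, against 493 and 510 CPM in WT. *rrp6∆* therefore stood above both other strains. *PUP3* rose by 0.81 ± 0.088 in *rrp6∆* over WT (adjusted p = 1.45e-09) and fell by 0.58 on the log2 scale in the double mutant against *rrp6∆* (SE 0.0864, adjusted p = 2.81e-06). Its call of 0.23 in the double mutant over WT was lost without WT replicate 1 (0.21) or double mutant replicate 2 (0.10).

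Of the remaining β genes *PRE4* (β7), *PRE7* (β6) and *PRE1* (β4) all rose in the double mutant against *rrp6∆*, by 0.55, 0.47 and 0.37. *PRE4* was 0.83 and *PRE7* 0.64 above WT in the double mutant, while *PRE1* was at 0.17 (adjusted p = 0.132, and called at the same 0.17 with either *rrp6∆* replicate left out). In *rrp6∆* over WT *PRE4* was higher (0.28) and *PRE1* lower (−0.21), and *PRE7* was at 0.17 (adjusted p = 0.167). *PRE4* lost this call without WT replicate 1 (0.29) or 2 (0.26), *PRE1* without WT replicate 1 (−0.22) or 2 (−0.20) or *rrp6∆* replicate 1 (−0.063), and *PRE7* gained one without *rrp6∆* replicate 1 (0.33). In sum over the 7 β genes the levels were 1967 and 2105 CPM in the double mutant and 2030 and 2215 CPM in *rrp6∆*, against 1679 and 1654 CPM in WT. The 7 α genes summed to 1821 and 1811 CPM in the double mutant and to 1322 and 1402 CPM in *rrp6∆*, against 1087 and 1063 CPM in WT. In CPM the α sums of the double mutant lay above those of *rrp6∆* and the β sums overlapped. As a share of ORF counts the β genes took 0.232% and 0.247% in the double mutant and 0.269% and 0.285% in *rrp6∆*, against 0.189% and 0.187% in WT, so that on this measure the double mutant lay below *rrp6∆*. Relative to the ORFs 5 β genes were called higher in the double mutant over WT and 4 in *rrp6∆* over WT (1 lower). With TMM factors from all features these counts were 2 higher and 1 lower, and 1 higher and 5 lower. On either scale 7 and 5 of the 7 β genes lay above the ORF median in these comparisons. On the ORF scale 28.5% and 28.4% of ORFs were called higher and lower in the double mutant, and 26.8% and 26.7% in *rrp6∆*.

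The 6 ATPases of the base pull the substrate into the core. The counts of *RPT1* are those of a row shared with YKL145W-A and cannot be assigned to it alone. *RPT1* (YKL145W, chromosome XI, 174213 to 175616) had 210 and 203 CPM in the double mutant and 118 and 137 CPM in *rrp6∆*, against 133 and 128 CPM in WT. Only the double mutant stood apart. *RPT1* was at −0.036 ± 0.0982 in *rrp6∆* over WT (adjusted p = 0.77), and higher in the double mutant than in WT by 0.65 ± 0.0959 (adjusted p = 6.26e-07) and than in *rrp6∆* by 0.69 ± 0.0914 (adjusted p = 4.2e-07), the last larger than for 95.7% of ORFs. *RPT2* (YDL007W, chromosome IV, 438047 to 439360), like *PUP3*, was highest in *rrp6∆*. It had 60.2 and 59.2 CPM in the double mutant and 90.3 and 81.4 CPM in *rrp6∆*, against 66.7 and 53.2 CPM in WT, with a rise of 0.51 ± 0.116 in *rrp6∆* over WT (adjusted p = 0.000322) and a fall of 0.53 on the log2 scale in the double mutant against *rrp6∆* (SE 0.11, adjusted p = 0.000202).

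*RPT4* rose by 0.58 in the double mutant over WT. Its calls in *rrp6∆* over WT (0.28) and in the double mutant over *rrp6∆* (0.30) were lost without single libraries, the first without WT replicate 2 (0.25) or *rrp6∆* replicate 2 (0.018) and the second without double mutant replicate 1 (0.24) or *rrp6∆* replicate 1 (0.085). *RPT5* rose by 0.25 in the double mutant against *rrp6∆* and passed against WT in neither strain (0.12 and −0.13 in the double mutant and *rrp6∆*). *RPT6* was called at 0.18 in the double mutant against *rrp6∆* (adjusted p = 0.0755), a call lost with any library but *rrp6∆* replicate 2 left out (0.13 to 0.20). *RPT3* passed in none of the 3 comparisons (−0.051, −0.13 and 0.078). Relative to the ORFs, of which 26.8% were called higher in *rrp6∆* and 28.5% in the double mutant, 2 of the 6 ATPase genes rose and 0 fell in each mutant over WT. TMM factors from all features gave 2 higher and 4 lower for the double mutant and 0 higher and 5 lower for *rrp6∆*. On that scale the ORF medians were −0.34 and −0.49. On either scale 4 of the 6 lay above the ORF median in the double mutant and 2 of the 6 in *rrp6∆*.

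*RPN10* and *RPN13* encode the receptors that hold the ubiquitin chain, and *RPN1* and *RPN2* the large scaffolds of the base. *RPN10* (YHR200W, chromosome VIII, 499079 to 499885) had 130 and 126 CPM in the double mutant and 86.7 and 106 CPM in *rrp6∆*, against 70.3 and 78.3 CPM in WT, with no overlap between the strains. It rose over WT by 0.77 ± 0.111 in the double mutant (adjusted p = 3.73e-07) and over *rrp6∆* by 0.40 ± 0.10 (adjusted p = 0.00178), and its call of 0.37 in *rrp6∆* over WT was lost without *rrp6∆* replicate 2 (0.22, adjusted p = 0.112). *RPN13* (YLR421C, chromosome XII, 965090 to 965560) had 187 and 159 CPM in the double mutant and 193 and 188 CPM in *rrp6∆*, against 168 and 170 CPM in WT, and passed in none of the 3 comparisons (0.024, 0.17 and −0.14). It was called lower than in *rrp6∆* only without double mutant replicate 1 (−0.27, adjusted p = 0.0711).

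*RPN2* (YIL075C, chromosome IX, 217863 to 220700) had 503 and 587 CPM in the double mutant and 418 and 502 CPM in *rrp6∆*, against 363 and 365 CPM in WT. It rose over WT by 0.57 ± 0.0952 in the double mutant and by 0.33 ± 0.0951 in *rrp6∆*, and its call of 0.23 against *rrp6∆* was lost without double mutant replicate 2 (0.12) or *rrp6∆* replicate 1 (0.10). *RPN1* was called in the double mutant over WT (0.20, adjusted p = 0.0805), a call lost without WT replicate 1 (0.20), WT replicate 2 (0.20) or double mutant replicate 2 (0.078). *RPN1* did not pass in *rrp6∆* over WT (0.084, called at 0.24 without *rrp6∆* replicate 1) nor against *rrp6∆* (0.11, called at 0.29 without *rrp6∆* replicate 2). Relative to the ORFs 3 of these 4 genes rose in the double mutant over WT and 2 in *rrp6∆* over WT, with none lower. TMM factors from all features gave 2 higher and 1 lower, and 0 higher and 2 lower. On either scale all 4 lay above the ORF median in both comparisons. On the ORF scale 28.5% of ORFs were called higher in the double mutant and 26.8% in *rrp6∆*.

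The lid carries *RPN11*, the deubiquitinase that frees the substrate from its chain, and *RPN8*, its partner. *RPN11* (YFR004W, chromosome VI, 153393 to 154313) had 75.8 and 99.2 CPM in the double mutant and 68.8 and 65.6 CPM in *rrp6∆*, against 69.7 and 61.5 CPM in WT. It was at 0.026 ± 0.124 in *rrp6∆* over WT (adjusted p = 0.868). Its calls of 0.39 over WT and 0.36 over *rrp6∆* in the double mutant rested on double mutant replicate 2, without which they were 0.19 (adjusted p = 0.26) and 0.16 (adjusted p = 0.356). *RPN8* (YOR261C, chromosome XV, 815915 to 816931) had 495 and 662 CPM in the double mutant and 721 and 678 CPM in *rrp6∆*, against 465 and 480 CPM in WT. It rose in *rrp6∆* over WT by 0.56 ± 0.0988 (adjusted p = 8.86e-06), while its calls in the double mutant were lost, the rise of 0.28 over WT at 0.048 without replicate 2 and the fall of 0.29 on the log2 scale against *rrp6∆* at −0.087 without replicate 1.

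*RPN12* (YFR052W, chromosome VI, 252505 to 253329) had 108 and 105 CPM in the double mutant and 67.1 and 78.2 CPM in *rrp6∆*, against 53.3 and 50.2 CPM in WT, in steps without overlap. It rose over WT by 1.03 ± 0.115 in the double mutant (adjusted p = 2.9e-09) and by 0.48 ± 0.118 in *rrp6∆* (adjusted p = 0.000624), and over *rrp6∆* by 0.54 ± 0.101 in the double mutant (adjusted p = 6.08e-05). *RPN9* rose in the same 3 comparisons by 0.68, 0.29 and 0.39, of which the second was lost without WT replicate 1 (0.26, adjusted p = 0.107).

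*RPN6* and *RPN7* were lower in *rrp6∆* than in WT (−0.26 and −0.28), and higher in the double mutant than in *rrp6∆*, by 0.35 and 0.24, so that the double mutant did not differ from WT by the test (0.095 and −0.04). The first call of *RPN6* was lost without WT replicate 1 (−0.19) or *rrp6∆* replicate 1 (−0.16), and that of *RPN7* without WT replicate 2 (−0.22). *RPN5* was at −0.00084 in *rrp6∆* over WT and rose by 0.27 in the double mutant against either strain. *RPN3* had 9.28 and 8.7 CPM in the double mutant and 13.6 and 11.5 CPM in *rrp6∆*, against 12.2 and 8.24 CPM in WT, the lowest counts of the set (24 in a WT library), and its call of −0.48 against *rrp6∆* was lost without either double mutant replicate (−0.53 and −0.44) or *rrp6∆* replicate 1 (−0.36). Relative to the ORFs 5 of the 8 lid genes rose in the double mutant over WT with none lower, and 3 rose and 2 fell in *rrp6∆*. TMM factors from all features gave 2 higher and 3 lower, and 0 higher and 5 lower. On either scale 6 and 5 of the 8 lay above the ORF median in these comparisons. On the ORF scale 28.5% and 28.4% of ORFs were called higher and lower in the double mutant. In *rrp6∆* these shares were 26.8% and 26.7%, and the lid counts there lay near them.

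**Figure D4:**
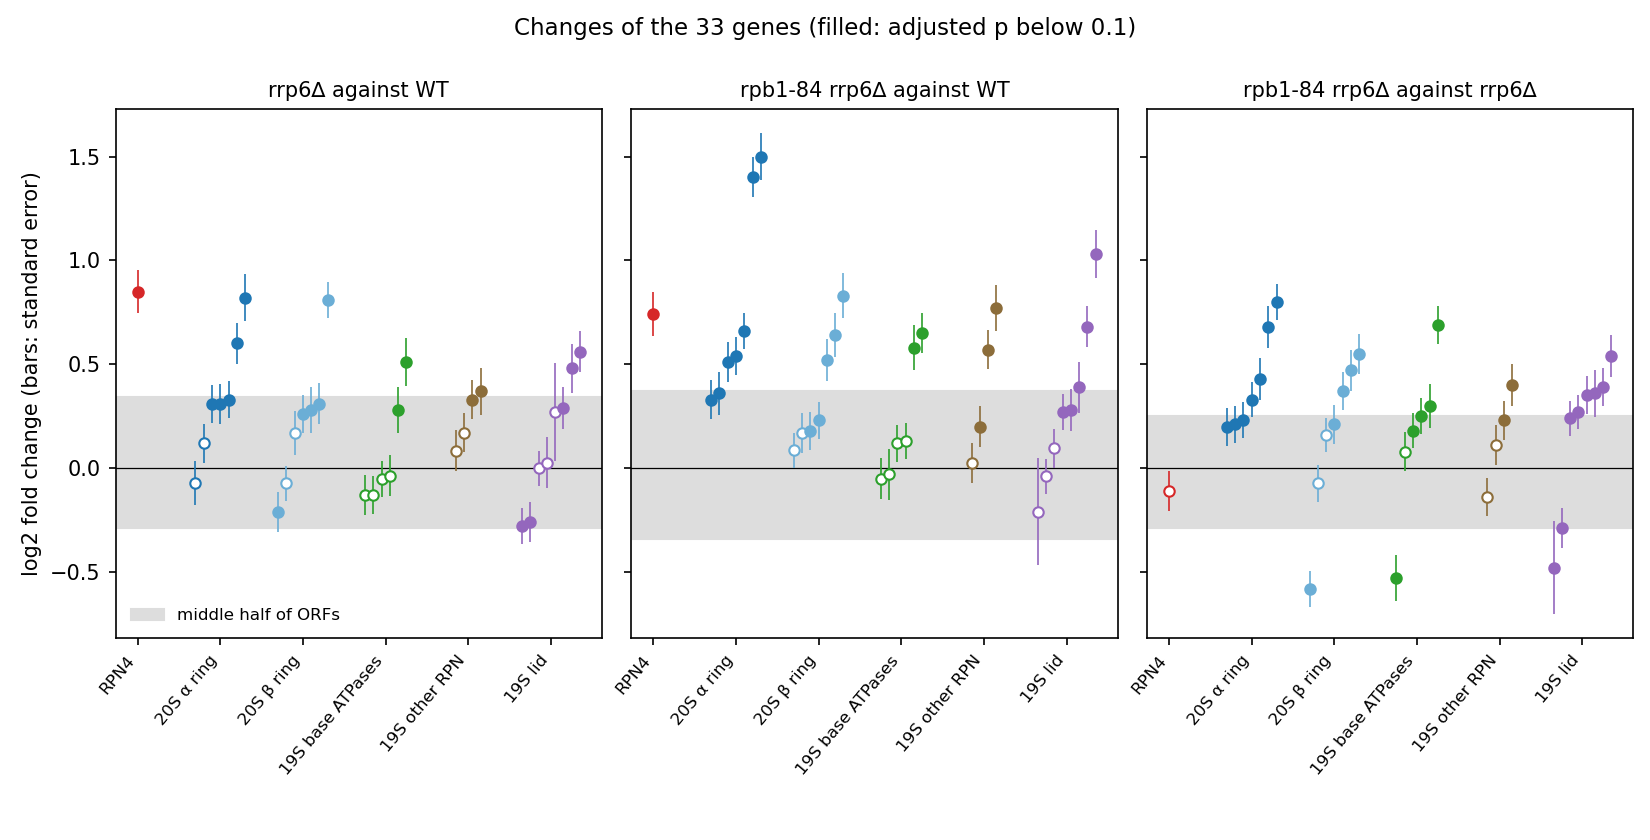
log2 fold change ± SE (y axis) of the 33 genes by part of the complex (x axis) in 3 comparisons, filled where the adjusted p is below 0.1, with a grey band from the lower to the upper quartile of ORFs. On the ORF scale 17, 23 and 23 points are filled above 0 and 3, 0 and 4 below it. With TMM factors from all features those counts are 3, 13 and 26 above 0 and 20, 9 and 2 below it. How many ORFs were called under that scaling was not counted.

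Calls that held with each of the 6 libraries left out in turn were 10 of 20 in *rrp6∆* over WT, all higher, 17 of 23 in the double mutant over WT, all higher, and 17 of 27 in the double mutant over *rrp6∆*, 15 higher and 2 lower (*PUP3* and *RPT2*). In *rrp6∆* over WT the count of lower genes was 1 without WT replicate 1, WT replicate 2 or *rrp6∆* replicate 1. How many calls among all ORFs held with a library left out was not counted, so these counts have no background beside them. *RPN10*, *RPN9* and *RPT4* end 64 to 70 bases from a gene that runs toward them (*PPX1*, *BNA7* and *HNT3*). Since the strand setting of the counting is not given, reads past either end cannot be assigned to 1 of the genes. None of the 33 overlaps another gene of the RefSeq annotation. Overlap with the ncRNA features that were also counted was not checked.

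Genes with and without PACE are given side by side. The double mutant over WT had 18 higher and 0 lower of the 27 subunit genes with a match (median 0.33), and 4 higher and 0 lower of the 5 with none (median 0.52). In *rrp6∆* over WT the counts were 12 higher and 3 lower of 27 (median 0.17) and 4 higher and 0 lower of 5 (median 0.33), and in the double mutant over *rrp6∆* 20 and 3 of 27 (median 0.25) and 3 and 1 of 5 (median 0.21). All these directions are relative to the ORFs. Of the ORFs 28.5% and 28.4%, 26.8% and 26.7%, and 24.5% and 23.8% were called higher and lower in these comparisons. The class with no match holds only 5 genes, and variants of the element with other letters were not searched. Genes that were higher in the double mutant than in WT stood in both classes, and so did genes that did not pass (*RPN13* among those with no match).

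Genes that work with the proteasome are given next. Among 18 genes of assembly factors and associated proteins 7 were higher and 2 lower in *rrp6∆* over WT, 7 and 2 in the double mutant over WT, and 2 and 3 in the double mutant over *rrp6∆*, with medians of 0.10, 0.13 and −0.033, all relative to the ORFs. Of all ORFs 26.8% and 26.7%, 28.5% and 28.4%, and 24.5% and 23.8% were called higher and lower in these comparisons. *SEM1*, the smallest lid subunit, had 641 and 755 CPM in the double mutant and 588 and 722 CPM in *rrp6∆*, against 384 CPM in each WT library, a rise over WT of 0.85 ± 0.0975 in the double mutant and 0.77 ± 0.0973 in *rrp6∆*. *UMP1*, which acts in the maturation of the core, passed in none of these (0.17, 0.13 and −0.038). *PBA1*, a chaperone of the core, rose by 1.14 in *rrp6∆* and 1.04 in the double mutant over WT, but its row is shared with YLR198C and cannot be assigned to it alone. *NAS6*, a chaperone of the base, was lower in *rrp6∆* than in WT (−0.52) and higher in the double mutant than in *rrp6∆* (0.52). *RPN14*, another base chaperone, rests on 19 and 18 counts in *rrp6∆* and 15 and 15 in the double mutant, against 5 and 2 in WT, and its calls (1.62 and 1.51) were lost without WT replicate 2 (1.21 and 1.10). *FUB1* was lower in the double mutant than in WT (−0.57) and in *rrp6∆* (−0.53), and so was *HSM3* (−0.46 and −0.35), of which the call against *rrp6∆* was lost without double mutant replicate 2 (−0.28) or *rrp6∆* replicate 2 (−0.28).

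The ubiquitin genes included the ligase genes known to act on Rpn4 in yeast. *UBR2*, whose product with Mub1 and Rad6 marks Rpn4 for degradation, had 41.2 and 47.5 CPM in the double mutant and 92.6 and 81 CPM in *rrp6∆*, against 39.3 and 42.6 CPM in WT. It rose by 1.08 ± 0.123 in *rrp6∆* over WT (adjusted p = 3.35e-09) and stood at −0.99 ± 0.114 in the double mutant over *rrp6∆* (adjusted p = 2.85e-08). *MUB1* was likewise highest in *rrp6∆*, with 0.66 in *rrp6∆* over WT and −0.86 in the double mutant over *rrp6∆*. *RAD6* was lowest in *rrp6∆*, with 14.3 and 13.4 CPM in the double mutant and 8.11 and 5.35 CPM in *rrp6∆*, against 11.9 and 11.3 CPM in WT. It was at −0.79 in *rrp6∆* over WT (−0.53 and adjusted p = 0.10 without *rrp6∆* replicate 2) and at 1.03 in the double mutant over *rrp6∆*. Of the enzymes upstream, *UBA1*, the gene of the ubiquitin-activating enzyme, rose by 0.95 in *rrp6∆* and 0.66 in the double mutant over WT, and *UBC4*, which encodes a conjugating enzyme, by 0.41 and 1.20. *UBI4*, the polyubiquitin gene, rose by 0.37 in *rrp6∆* (0.31, adjusted p = 0.141, without WT replicate 1) and by 0.82 in the double mutant. *UFD1*, a cofactor of Cdc48, rose by 0.61 and 0.83, and *CDC48*, the gene of the segregase itself, was at −0.16 (adjusted p = 0.0813, lost with WT replicate 1 or 2, double mutant replicate 1 or *rrp6∆* replicate 1 left out, −0.17 to −0.12) and −0.055. Of all 18 ubiquitin and Cdc48 genes 6 were higher and 7 lower in *rrp6∆* over WT, 6 and 4 in the double mutant over WT, and 7 and 5 in the double mutant over *rrp6∆*, with medians of −0.034, 0.062 and −0.075, all relative to the ORFs, of which between 23.8% and 28.5% were called in each direction.

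Of 4 regulators of *RPN4*, *HSF1*, the heat shock factor, had 63.6 and 72.9 CPM in the double mutant and 58.8 and 66.9 CPM in *rrp6∆*, against 43.2 and 43.3 CPM in WT, and rose over WT by 0.64 and 0.54. *YAP1* was higher by 0.30 in the double mutant (0.21, adjusted p = 0.214, without WT replicate 2) and by 0.22 in *rrp6∆* (0.13 without WT replicate 2 and 0.18 without *rrp6∆* replicate 1, neither called). *PDR3* was at −0.34 in the double mutant, a call lost without WT replicate 1 (−0.31), WT replicate 2 (−0.36) or double mutant replicate 2 (−0.30), and its row is shared with a Ty element end. *PDR1* passed in none. Between the double mutant and *rrp6∆* 0 of the 4 passed by edgeR, with 0 at an unadjusted p below 0.05, and of *HSF1*, *YAP1* and *PDR3* 0 passed by DESeq2.

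In the *rpb1-84* libraries the proteasome genes spread most. Of the 33 genes 24 were higher and 6 lower than in the WT of the *rrp6∆* experiment, against 35.8% and 36.0% of ORFs (27.3% and 32.3% of all features), and 18 were past 2-fold, against 31.0% of ORFs. The median was 0.85, against −0.0096 over the ORFs, and all 30 calls held with each of 8 libraries left out in turn. How many calls among all ORFs held in this way was not counted. The *rpb1-84* allele, the TAP tag on *RPB4* and the experiment cannot be told apart here. *RPB4* itself had 33 and 59 raw counts in the *rpb1-84* libraries, against 606 and 508 in WT. Whether 3′ reads of the gene with the TAP tag still fall in its row is not given, so these counts do not measure its mRNA. All 7 α genes were higher, 5 of them past 2-fold, with 477 and 479 CPM in *rpb1-84* for *PUP2*, against 108 and 109 CPM in WT, and with 281 and 330 CPM for *PRE6*, against 99.8 and 110 CPM. *RPN4* was among the 3 genes that did not pass (*RPN3* and *RPN11* were the others), with 70.7 and 73.6 CPM in *rpb1-84*, against 73.9 and 83.8 CPM in WT (−0.12 ± 0.117, adjusted p = 0.407).

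A few genes held the extremes. *RPN2* had 2694 and 3000 CPM in *rpb1-84*, against 363 and 365 CPM in WT (2.97 ± 0.108, adjusted p = 1.26e-23), and *RPN10* 363 and 398 CPM, against 70.3 and 78.3 CPM (2.36 ± 0.113). *RPN8* had 24.8 and 10.4 CPM in *rpb1-84*, against 465 and 480 CPM in WT (−4.90 ± 0.179, adjusted p = 1.26e-23). *GPN2*, which is divergent from *RPN8* with 360 bases between the genes, had 0.792 and 1.54 CPM in *rpb1-84*, against 24.4 and 22.7 CPM in WT, a gene looked up after the values of *RPN8* were seen. *RPT2* had 7.66 and 8.2 CPM, against 66.7 and 53.2 CPM (−2.90 ± 0.169), and *RPN1* 199 and 140 CPM, against 366 and 366 CPM (−1.13 ± 0.121). The other lower genes were *PRE3*, *RPN7* and *RPN13*, at −0.38, −0.36 and −0.40. The subunit genes took 1.39% ± 0.0631 of ORF counts in *rpb1-84*, against 0.690% ± 0.00167 in WT, and without *RPN2* 1.08% ± 0.0365, against 0.649% ± 0.00132 (SD, n = 2 each). The double mutant carries the same allele and plasmid but differs from *rpb1-84* in *RRP6*, in the tag and in the experiment. In it *RPN8* had 495 and 662 CPM, and *RPT2* had 60.2 and 59.2 CPM.

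Between the double mutant and *rpb1-84*, which differ in *RRP6*, in the tag and in the experiment, 8 genes were higher and 24 lower, against 38.2% and 37.5% of ORFs (55.9% and 23.6% of all features), with 9 past 2-fold, against 29.0% of ORFs. The higher genes were *RPN8*, *RPT2*, *RPN1*, *RPN4*, *PRE3*, *RPN13*, *RPN7* and *RPN11*, and *PRE6* was the 1 gene that did not pass (−0.16, adjusted p = 0.133, called at −0.28 without *rpb1-84* replicate 1). *RPN4* was higher by 0.86 ± 0.106 (adjusted p = 3.76e-09). The calls of *RPN11* (0.28), *PUP3* (−0.24), *RPN3* (−0.50) and *RPT4* (−0.20) were lost with single libraries left out. *RPN11* was at 0.19 without *rpb1-84* replicate 1 and at 0.073 without double mutant replicate 2, *PUP3* at −0.13 without double mutant replicate 1, *RPN3* at −0.40 without *rpb1-84* replicate 2 and at −0.47 without double mutant replicate 2, and *RPT4* at −0.20 to −0.14 without either WT replicate, *rpb1-84* replicate 2 or double mutant replicate 2. *PRE3*, *RPN7*, *RPN11* and *RPN13* turned to the lower side with factors from all features.

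The effect of *RRP6* deletion on a gene was compared between *rpb1-84* and *RPB1* strains by the interaction in the 8-library fit. It was called for 5 genes on the higher side and 22 on the lower side, against 30.2% and 30.4% of ORFs (23.5% and 27.3% of all features), and the median was −0.74, against −0.019 over the ORFs. For *RPN4* it was 0.0066 (adjusted p = 0.977), with −0.10 to 0.10 over the fits with a library left out. Here too the tag and the experiment cannot be told apart from the allele.

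**Figure D5:**
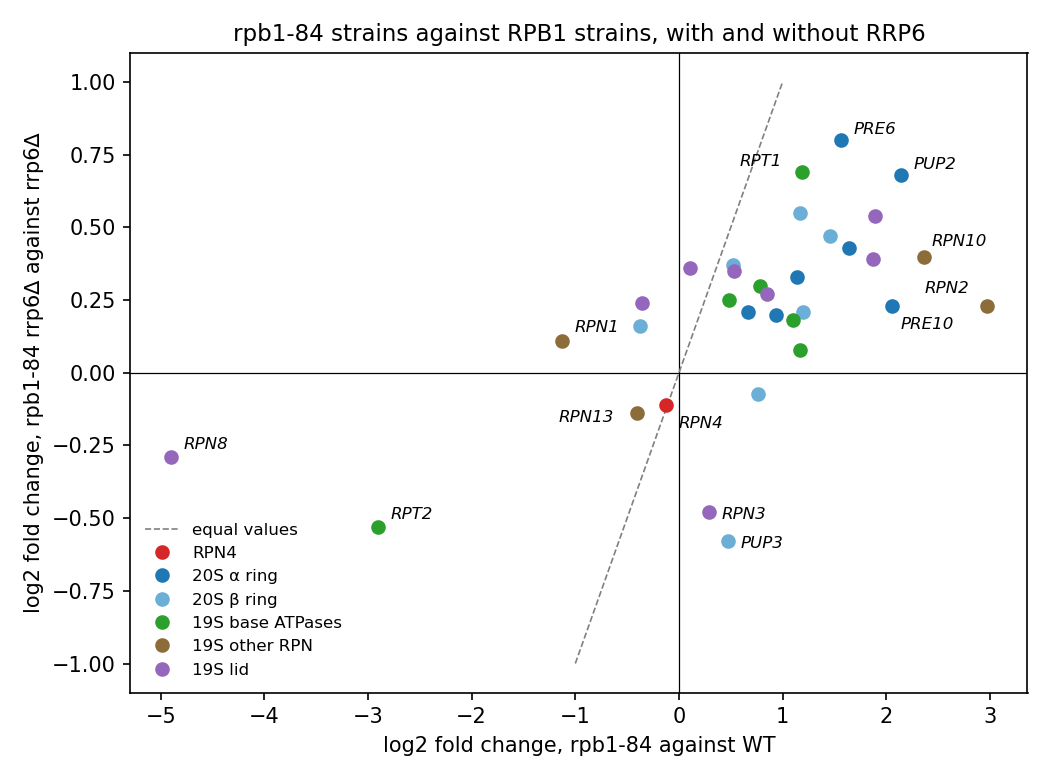
log2 fold change of the double mutant over *rrp6∆* (y axis) against that of *rpb1-84* over WT (x axis) for the 33 genes, coloured by part, with the line of equal values dashed. The y values run from −0.58 (*PUP3*) to 0.80 (*PRE6*) and the x values from −4.90 (*RPN8*) to 2.97 (*RPN2*), and *RPN4* lies near the origin at −0.12 and −0.11.

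The libraries labelled *rpb4∆* have no WT of their own here, so their levels are described without a test. Both lay above both libraries of the WT at hand for 30 of the 33 genes and below them for 0, against 39.4% and 36.7% of the 4400 ORFs above 10 CPM, and the median log2 ratio was 0.84, against 0.019 over those ORFs. The 3 genes that overlapped were *PUP3*, *RPT2* and *RPN8*. *RPN11* was furthest from WT, with 225 and 234 CPM in the libraries labelled *rpb4∆*, against 69.7 and 61.5 CPM in WT, a log2 ratio of 1.81. *RPT1* had 366 and 365 CPM there, against 133 and 128 CPM, and *PUP1* 532 and 448 CPM, against 164 and 154 CPM. *RPN4* had 164 and 162 CPM there, against 73.9 and 83.8 CPM. Strain background, experiment and the mating type and *MET15* counts that go against the label move together with these levels and cannot be told apart from the deletion.

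Ordered by mean level, *RPN4* stood at 163 CPM in the libraries labelled *rpb4∆*, 142 CPM in *rrp6∆*, 132 CPM in the double mutant, 78.9 CPM in WT and 72.2 CPM in *rpb1-84*. *rrp6∆* and the double mutant overlapped, and *rpb1-84* and WT did not differ by the test. The 32 subunit genes summed to 8058 ± 287 CPM in the double mutant, 7253 ± 357 CPM in *rrp6∆*, 12480 ± 472 CPM in *rpb1-84* and 10450 ± 597 CPM in the libraries labelled *rpb4∆*, against 6128 ± 9.5 CPM in WT (SD, n = 2 each). The sum was highest in *rpb1-84*, where the mean *RPN4* level was lowest, but its place above the libraries labelled *rpb4∆* rested on *RPN2*. Without *RPN2* the subunit genes took 1.05% and 1.1% of ORF counts in *rpb1-84* and 1.06% and 0.975% in the libraries labelled *rpb4∆*, against 0.648% and 0.65% in WT, and the first 2 strains overlapped. With TMM factors from all features the sum was 2.15 times that of WT in *rpb1-84* and 0.818 times in *rrp6∆*, and *RPN4* in *rpb1-84* over WT was at 0.036 in place of −0.12, called under neither.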

How the data were processed

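RNA-Seq of 3′ tags (QuantSeq, Illumina HiSeq) was analysed for 10 libraries. The authors used FastQC for read quality, Fastx Clipper against adapters, HISAT2 for alignment to R64 and featureCounts for counting, and deposited counts per feature without normalization. DESeq2 is also among the tools in the submitters' processing notes. Versions, strand setting and treatment of overlapping features are not given in the sources used here.

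Rows were taken as members where an identifier matched. TMM factors came from rows that hold only ORF names, since ncRNAs take more counts without Rrp6. edgeR 4.0.16 (filterByExpr, glmQLFit, glmQLFTest, R 4.3.3) was fitted to 6 libraries (9197 features, 5160 of them ORFs) for comparisons within the *rrp6∆* experiment and to 8 libraries (9264 features, 5188 ORFs) for those with *rpb1-84*, with Benjamini-Hochberg adjustment over all features. Libraries labelled *rpb4∆* entered no test. Levels and figures used Python 3.11.15, pandas 2.3.3 and matplotlib 3.10.9. The fit was tested on simulated data that held no shift in the share of ncRNAs between strains. That test therefore says nothing about how the directions depend on the scaling.

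Libraries of 1 strain are labelled as independent biological replicates. Named in full were *RPN4*, *PRE3*, *PUP1*, *PRE2*, *RPN11*, *RPN10*, *RPN13* and, in each of the first 3 comparisons, the 3 members with the largest change among those called without overlap. The related lists name at most 3 genes called per list and comparison, plus *UBI4*, *UMP1*, *SEM1* and *CDC48*. Other members are named by part. Members and lists were chosen with earlier results of these data known. Alternatives were other scalings, no filter, DESeq2 1.42.0, a replicate block, a threshold of 0.05, only the libraries compared, a shorter motif and each library left out. Leaving *RPN2* out of the share of counts was chosen after seeing the data.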

Additional observations from a re-analysis of the deposited data

Results flagged for a closer look

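For 27 of the 33 genes the change on deleting *RRP6* differed between *rpb1-84* and *RPB1* strains in the interaction test (edgeR, adjusted p below 0.1). Of these, 5 stood on the higher side and 22 on the lower side, against 30.2% and 30.4% of ORFs. The value is the log2 fold change of the double mutant over *rpb1-84* minus that of *rrp6∆* over WT. In these 4 strains the TAP tag on *RPB4* and the experiment of the *rpb1-84* libraries move with the contrast and their part in it was not tested.

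On the higher side stood *RPN8* (4.62), *RPT2* (2.37), *RPN1* (1.24), *RPN7* (0.60) and *PRE3* (0.54). On the lower side *RPN2* (−2.73) and *RPN10* (−1.97) stood furthest, followed among the α genes by *PRE10* (−1.82), *PUP2* (−1.46), *SCL1* (−1.21), *PRE5* (−0.81), *PRE6* (−0.76), *PRE9* (−0.74) and *PRE8* (−0.45). The β genes were *PUP3* (−1.04), *PUP1* (−0.99), *PRE7* (−0.98), *PRE2* (−0.83) and *PRE4* (−0.62), and the ATPase genes *RPT3* (−1.10), *RPT6* (−0.91), *RPT1* (−0.50) and *RPT4* (−0.47). The lid genes were *RPN9* (−1.48), *RPN12* (−1.35), *RPN3* (−0.77) and *RPN5* (−0.58). *RPT4* was not called without *rrp6∆* replicate 2 (−0.22), nor *RPN3* without WT replicate 2 (−0.53), *rpb1-84* replicate 2 (−0.67), double mutant replicate 2 (−0.73) or *rrp6∆* replicate 1 (−0.63), while *RPN11* was called without double mutant replicate 1 (0.45) and *RPN13* without double mutant replicate 2 (0.37).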

How the results depend on the processing

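Log2 fold changes called on the ORF scale or under the alternative turned sign only under scaling factors from all features, and none did so with total counts, no filter, DESeq2 with ORF size factors, the block, the 4 libraries compared alone or a library left out. The threshold of 0.05, no filter, the 4 libraries alone and DESeq2 with ORF size factors kept every count of higher or lower genes within 1.5 times, and the shorter motif matched the same number of genes. In *rrp6∆* over WT the sign turned with TMM factors for the median of the 33 genes (−0.21) and *PRE2* −0.23, *PRE4* −0.21, *PRE5* −0.16, *PRE7* −0.32, *PRE8* −0.37, *PRE9* −0.17, *PRE10* −0.18, *PUP1* −0.18, *RPT4* −0.21, *RPN1* −0.40, *RPN2* −0.15, *RPN9* −0.20, *RPN10* −0.11, *RPN11* −0.46, *RPN12* −0.0026, *RPN13* −0.32, *UMP1* −0.31, *UBI4* −0.12, *UBC4* −0.075 and *YAP1* −0.27, and with DESeq2 size factors for the median of the 33 genes (−0.21) and *PRE2* −0.22, *PRE4* −0.20, *PRE5* −0.15, *PRE7* −0.31, *PRE8* −0.36, *PRE9* −0.16, *PRE10* −0.17, *PUP1* −0.17, *RPT4* −0.20, *RPN1* −0.39, *RPN2* −0.15, *RPN9* −0.19, *RPN10* −0.10, *RPN11* −0.45, *RPN13* −0.31, *UMP1* −0.31, *UBI4* −0.11, *UBC4* −0.067 and *YAP1* −0.26. In the double mutant over WT it turned with TMM factors for *PRE2* −0.16, *PRE3* −0.25, *PRE8* −0.015, *PUP3* −0.11, *RPT5* −0.22, *RPT6* −0.21, *RPN1* −0.14, *RPN5* −0.074, *RPN6* −0.25, *RPN8* −0.065, *RPN13* −0.32, *NAS6* −0.34 and *YAP1* −0.043, and with DESeq2 size factors for the median of the 33 genes (−0.00048) and *PRE1* −0.20, *PRE2* −0.18, *PRE3* −0.27, *PRE8* −0.036, *PUP3* −0.13, *SCL1* −0.00048, *RPT5* −0.24, *RPT6* −0.23, *RPN1* −0.16, *RPN5* −0.095, *RPN6* −0.27, *RPN8* −0.086, *RPN13* −0.34, *NAS6* −0.36, *UBR2* −0.27 and *YAP1* −0.064. In the double mutant over *rpb1-84* it turned with TMM factors for *PRE3* −0.023, *RPN7* −0.18, *RPN11* −0.21, *RPN13* −0.067, *UMP1* −0.23, *UBA1* −0.43 and *CDC48* −0.18, and with DESeq2 size factors for *PRE3* −0.047, *RPN7* −0.20, *RPN11* −0.23, *RPN13* −0.09, *UMP1* −0.25, *UBA1* −0.45, *CDC48* −0.21 and *MUB1* −0.0034.

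Members higher and lower in *rrp6∆* over WT were 3 and 20 with TMM factors from all features, 3 and 18 with DESeq2 size factors and 7 and 10 with total counts. The ORF medians under these scalings were −0.49, −0.48 and −0.17. In the double mutant over WT the counts were 13 and 9, 13 and 11, and 15 and 2. There the ORF medians were −0.34, −0.36 and −0.17. In the double mutant over *rrp6∆* 2 were lower with either all-feature scaling, and in the double mutant over *rpb1-84* 4 were higher with either. With single libraries left out the counts of higher and lower genes were 12 to 19 and 1 to 3 in *rrp6∆* over WT, 18 to 24 and 0 in the double mutant over WT, 17 to 23 and 3 to 4 over *rrp6∆*, 7 to 8 and 22 to 25 over *rpb1-84*, 24 and 6 in *rpb1-84* over WT, and 5 to 6 and 21 to 22 in the interaction.

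Summed levels of the 32 subunit genes over WT (1.31 in the double mutant, 1.18 in *rrp6∆*, 2.04 in *rpb1-84* and 1.71 in the libraries labelled *rpb4∆*) were 1.0, 0.818, 2.15 and 1.94 with TMM factors from all features, and 1.16, 1.05 and 1.6 with total counts in the double mutant, *rrp6∆* and *rpb4∆*. The median log2 level ratio of the 33 genes to WT was −0.0171, −0.251, 0.924 and 1.02 with TMM factors from all features, and 0.195, 0.106 and 0.744 with total counts in the double mutant, *rrp6∆* and *rpb4∆*. Without *RPN2* the share of ORF counts was 0.884% in the double mutant, 0.886% in *rrp6∆*, 1.08% in *rpb1-84* and 0.649% in WT.

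Replicate numbers did not pair the libraries, since deviations of same-numbered libraries correlated with r between −0.0376 and 0.0587 across 4209 ORFs. With the replicate block 17 genes were higher and 3 lower in *rrp6∆* over WT, 22 and 0 in the double mutant over WT, 23 and 4 over *rrp6∆*, 8 and 23 over *rpb1-84*, 24 and 6 in *rpb1-84* over WT and 5 and 22 in the interaction. Depth limits *RPN3* and *RPN14*, whose rows held as few as 24 and 1 counts in a library.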
